A study of Homo sapiens with 8 samples.

Results

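The 32 genes described here encode enzymes and regulators of cholesterol and fatty acid synthesis, taken by symbol from the counted genes of a human T-cell leukaemia line. They are 32 of the 63677 genes listed, and all 32 were among the 15646 genes with enough reads to be tested. The count table holds 35 entries with these symbols, and the 3 additional entries, second identifiers of NSDHL, EBP and ACLY, had no read in any library. By role, 7 belong to the mevalonate pathway, 11 to the steps from squalene to cholesterol, 6 to SREBP control and sterol transport, and 8 to fatty acid synthesis.

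Cells build cholesterol from acetyl-CoA through mevalonate, farnesyl diphosphate, squalene and lanosterol, and build fatty acids from the same acetyl-CoA through malonyl-CoA. The genes of both routes are classic targets of the SREBP transcription factors, which SCAP escorts to the Golgi for activation when membrane sterol is low and which INSIG proteins hold in the endoplasmic reticulum when it is high. Dividing cells such as leukaemic T cells draw on both routes for new membrane.

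The cells were Jurkat, an established line of T-cell acute lymphoblastic leukaemia, and in all 4 groups they carried TAL1, a transcription factor of this leukaemia, fused to the FKBP12 tag through which the degrader dTAG-13 acts. They were kept for 24 hours in the solvent DMSO, in dTAG-13, in GSI, or in dTAG-13 and GSI together, called the combination below. GSI commonly stands for a gamma-secretase inhibitor, which blocks NOTCH activation. Every group had 2 libraries of total RNA, numbered 1 and 2 in the labels. The doses, and whether the fusion line is 1 clone, are not given in the labels. Nor do the labels tell whether the 2 libraries of a group are separate cultures, and p-values below therefore measure only the spread of these libraries, possibly a technical one.

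Libraries held 17544319 to 22180009 counts, of which 0.996% to 1.25% fell on the 32 genes and 7.8% to 8.81% on mitochondrial genes. The 10 T-cell markers summed to 2762 to 3255 CPM (counts scaled to a common library size), while 5 myeloid markers stayed at or below 0.61 CPM, with MPO at 0. Liver and adipocyte marker lists, from tissues that make much lipid, summed to at most 0.276 and 0.52 CPM, with ALB, ADIPOQ and LEP at 0. The NOTCH target DTX1 was lower in all 4 libraries with GSI than in all 4 without (log2 fold change -2.72 ± 0.07 SE, adjusted p = 8.52e-10, edgeR), as were HES1 (-2.28) and MYC (-0.83). The TAL1 transcript, which does not show how much TAL1 protein was left, had 154 and 166 CPM with DMSO, 145 and 147 with dTAG-13, 208 and 198 with GSI, and 197 and 199 with the combination. It had a log2 fold change of -0.13 with dTAG-13 against DMSO, which did not pass the test, and rose with GSI averaged over both backgrounds (log2 fold change 0.39 ± 0.06 SE, adjusted p = 0.00124, edgeR).

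The promoters of these genes are shown first, because SREBP, NF-Y and Sp1 are known partners at sterol-responsive promoters. RefSeq promoter windows (GRCh38.p14, from 250 bases before to 50 after each start) were matched for 28 of the 32 genes. The NF-Y box CCAAT, read on both strands, was in windows of 21 of these 28 genes (75%), against 39.7% of the 27305 genes with windows. The Sp1 box GGGCGG was in 27 of 28 (96.4% against 48.3%), and the E-box CACGTG in 4 of 28 (14.3% against 8.78%). The sterol regulatory element TCACNCCAC was in 1 of 28 (3.57% against 1.39%), the promoter of SREBF2. The 27305 genes were not limited to those tested here, whereas the 28 were all tested. A match is a description of the letters and not a binding site. SREBF2 carried that element 133 bases before its start at chr22:41832962-41832990 on the plus strand, capitals marking the element.
SREBF2: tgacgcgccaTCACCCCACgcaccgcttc

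The stretches printed next lie before the starts of 5 of the 7 genes called higher with GSI averaged over both backgrounds. They were trimmed to bases outside annotated exons, and capitals mark NF-Y boxes on either strand. They are HMGCS1 at chr5:43313513-43313662 (minus strand), INSIG1 at chr7:155297628-155297775 (plus strand), SREBF1 at chr17:17837003-17837236 (minus strand), ELOVL6 at chr4:110198677-110198841 (minus strand) and FADS2 at chr11:61816154-61816255 (plus strand).
HMGCS1: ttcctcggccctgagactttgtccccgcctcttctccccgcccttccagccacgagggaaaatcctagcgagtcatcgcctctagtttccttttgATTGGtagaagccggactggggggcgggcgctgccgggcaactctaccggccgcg
INSIG1: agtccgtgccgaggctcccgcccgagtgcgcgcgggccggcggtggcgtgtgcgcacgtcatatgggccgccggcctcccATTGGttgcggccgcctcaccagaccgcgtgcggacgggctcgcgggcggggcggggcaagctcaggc
SREBF1: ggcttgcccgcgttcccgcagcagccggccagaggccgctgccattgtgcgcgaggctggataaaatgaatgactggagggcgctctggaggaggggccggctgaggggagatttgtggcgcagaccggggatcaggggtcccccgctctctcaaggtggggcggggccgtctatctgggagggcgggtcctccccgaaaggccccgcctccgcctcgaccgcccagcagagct
ELOVL6: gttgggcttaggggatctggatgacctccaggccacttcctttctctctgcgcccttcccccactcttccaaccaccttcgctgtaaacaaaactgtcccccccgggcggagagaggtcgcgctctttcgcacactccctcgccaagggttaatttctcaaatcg
FADS2: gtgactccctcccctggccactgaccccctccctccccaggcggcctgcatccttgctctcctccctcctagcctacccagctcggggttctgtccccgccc
HMGCS1 and INSIG1 each show 1 NF-Y box in these stretches, and SREBF1, ELOVL6 and FADS2 show none there. HMGCS1 has 2 starts in the table, and the stretch before the other, at chr5:43313225-43313355, holds no box. A further box of HMGCS1 lies just past the printed stretch, and the box of FADS2 just past its start. The others called higher, FADS1 and TM7SF2, are not printed. TM7SF2 has an NF-Y box 74 bases before its start, and the window of FADS1 has none. No match says only that these letters are not in this window.

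In DMSO the median level of the 32 genes was above that of all genes tested. Per kilobase of annotated exon, their median was 56.5 CPM against 4.31 CPM over the 15173 tested genes with a length, and 18 of 32 lay above the 90th percentile of 31.1 CPM per kb. FDFT1, squalene synthase, came highest at 226 ± 11.5 CPM per kb (SD, n = 2), followed by INSIG1 at 176 ± 2.17 CPM per kb. HMGCS1 at 123 ± 1.63, SCD at 119.8 ± 3.03 and FDPS at 117 ± 6.22 CPM per kb came next, neighbours whose SDs overlapped. ELOVL6 at 3.84 ± 0.109 and ACSS2 at 3.19 ± 0.166 CPM per kb lay below the median of all genes. So did CYP51A1, lanosterol demethylase, the lowest at 0.444 CPM per kb with 26 to 40 counts per library, and 79.4% of its exon bases are shared with another protein-coding gene model on the same strand in GENCODE v29. Few transcripts and few reads assigned to it cannot be told apart here.

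**Figure D1:**
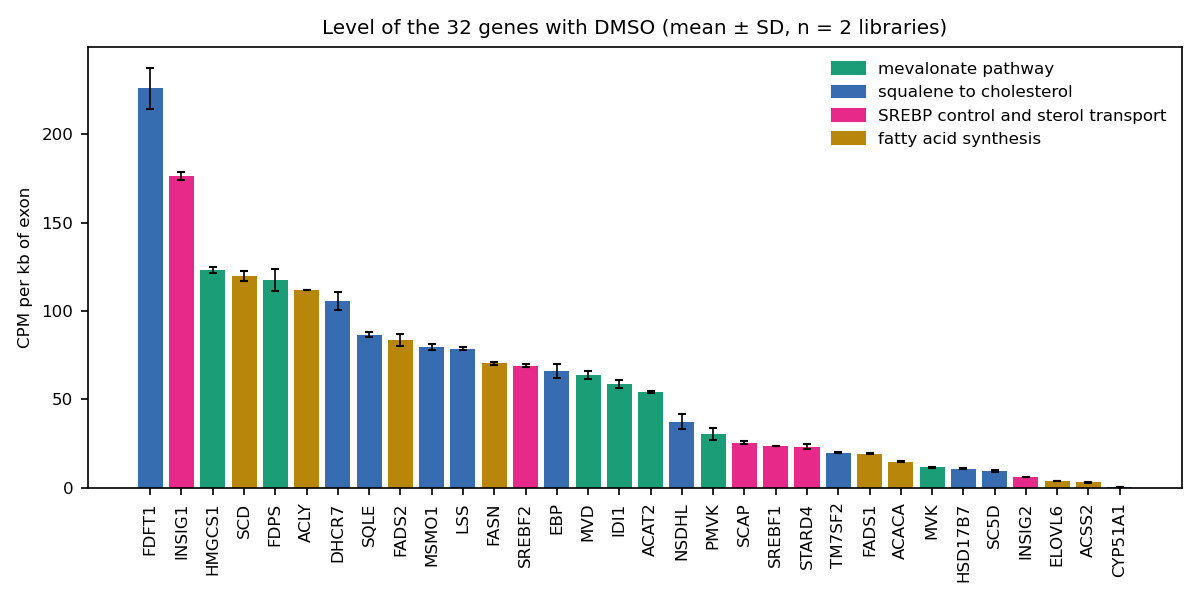
Level of each of the 32 genes with DMSO in CPM per kb of exon; bars are the mean of 2 libraries, whiskers the SD, and colours the 4 roles. FDFT1 stands highest at 226 CPM per kb and CYP51A1 lowest at 0.444.

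Across the treatments the summed level of the 32 genes was 10177 and 9909 CPM with DMSO, 10794 and 10472 with dTAG-13, 11307 and 11060 with GSI, and 12044 and 11324 with the combination. Both libraries of each treatment lay above both DMSO libraries, and both of GSI lay above both of dTAG-13. The sum is led by the most abundant genes, so the genes are described one by one below, in CPM with the value of replicate 1 before that of replicate 2. In RNA from whole cultures, a change in RNA per cell and a change in which cells are present cannot be told apart.

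**Figure D2:**
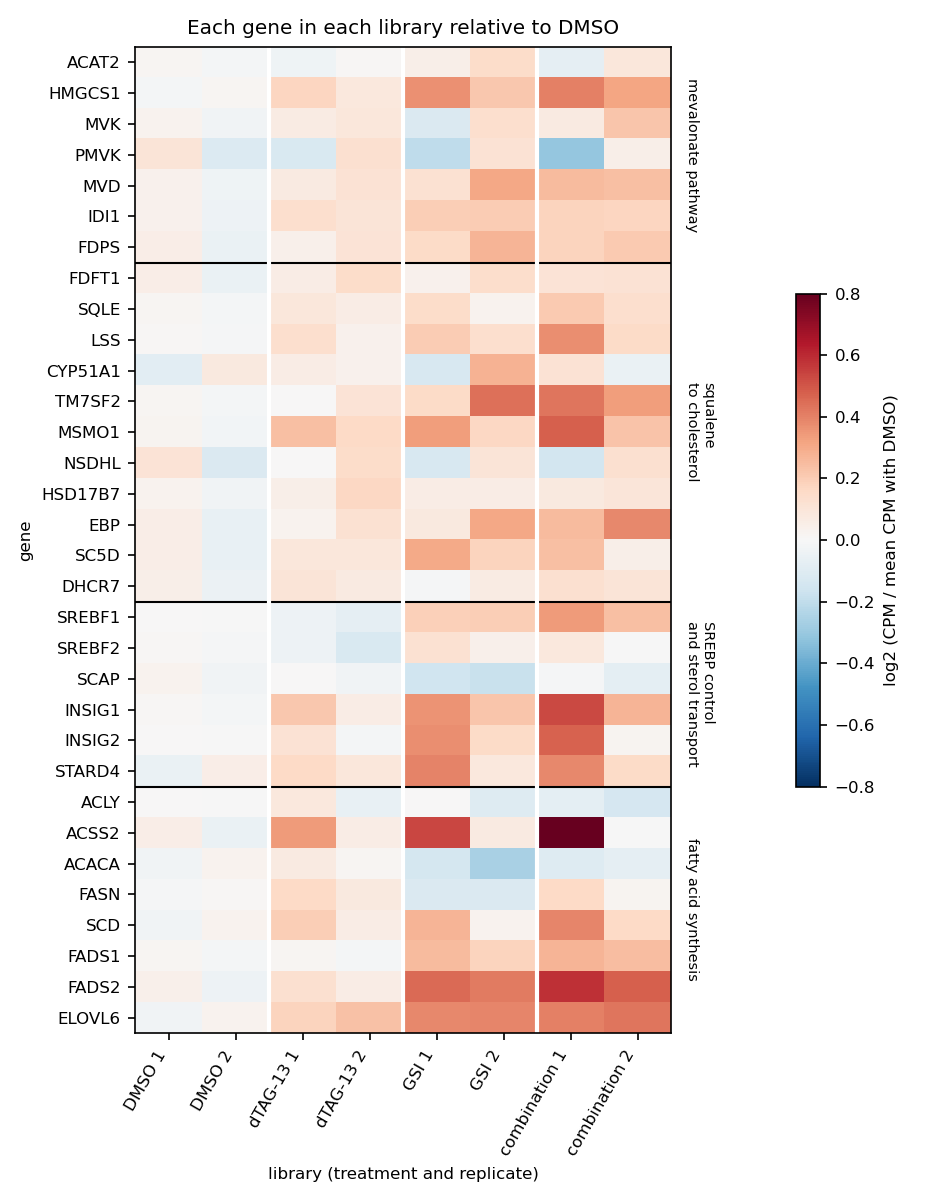
Each of the 32 genes (rows, by role) in each of the 8 libraries (columns) as log2 of its CPM over the mean CPM with DMSO; red is above and blue below that mean. FADS2 and ELOVL6 are red in all 4 libraries with GSI, and ACSS2 is deepest red in combination replicate 1, at 30.5 CPM against 17.1 CPM in replicate 2.

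The comparison with most libraries set the 4 with GSI against the 4 without it, averaging the GSI effect over cells with and without dTAG-13. Of the 32 genes, 7 rose and 0 fell at an adjusted p below 0.05 (edgeR quasi-likelihood test, Benjamini-Hochberg over all 15646 genes), where 6.94% of all genes were called and 3.38% were called higher. The 7 were FADS2, FADS1 and ELOVL6 of fatty acid synthesis, SREBF1 and INSIG1 of SREBP control, HMGCS1 of the mevalonate pathway and TM7SF2 of the sterol steps. DESeq2 called 7 genes higher too, where it called 2.95% of all genes higher. The median log2 fold change of the 32 was 0.15 with 26 above 0, against a median of 0.01 over all genes tested, of which 51.6% were above 0. All 4 libraries with GSI were above all 4 without it for 11 of the 32 genes, where 7% of all genes were so ordered, and below them for 1, ACACA, where 8.22% were. Markers of B cells, led by CD79A, moved with this contrast too, from 60.7 to 71.2 CPM in sum without GSI to 88.9 to 109 CPM with it, and their part in the result was not tested.

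**Figure D3:**
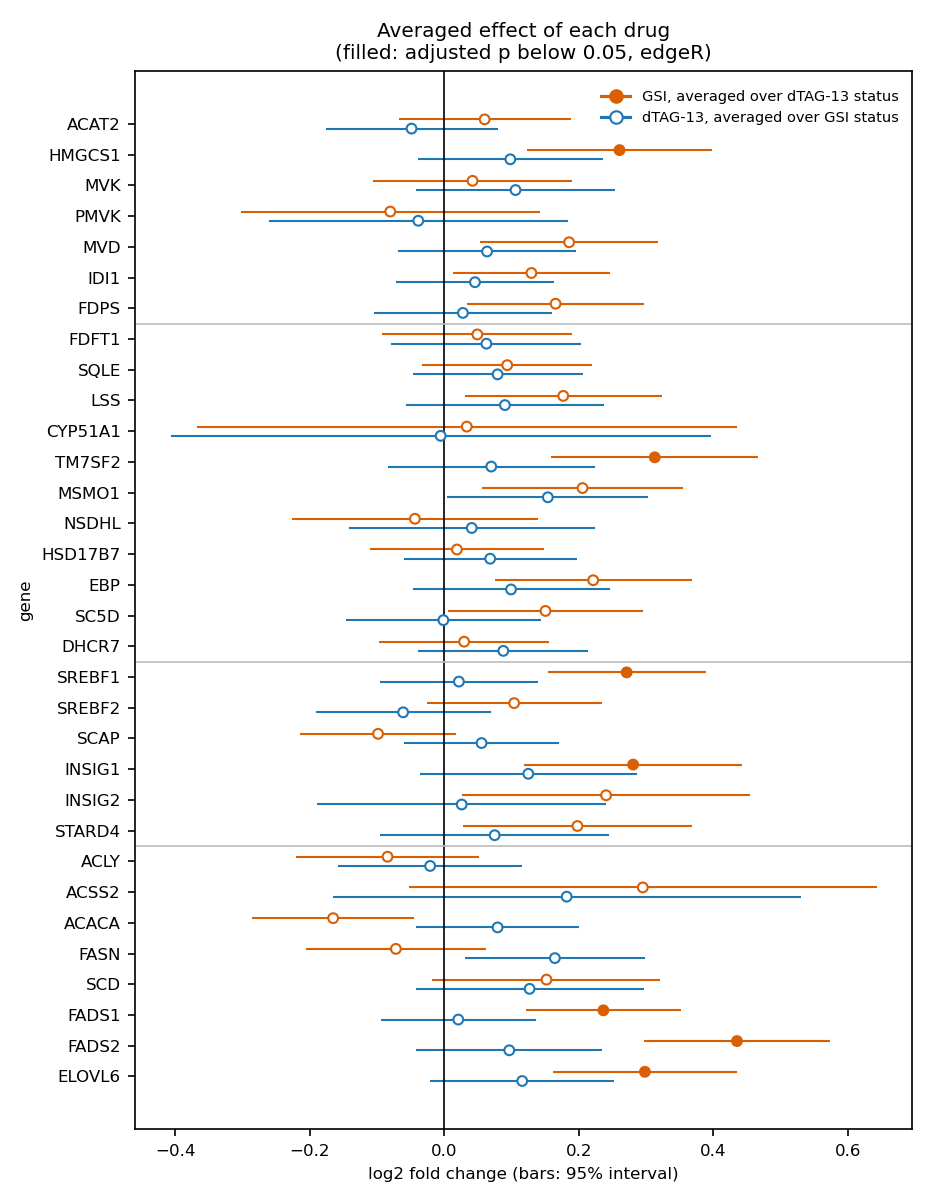
Averaged effect of GSI (orange) and of dTAG-13 (blue) on each of the 32 genes as a log2 fold change with its 95% interval; filled points passed an adjusted p of 0.05. The 7 filled points are all GSI effects, from 0.24 for FADS1 to 0.44 for FADS2.

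FADS2, the desaturase that opens the synthesis of long polyunsaturated fatty acids, had 949.8 and 896 CPM with DMSO, 1009.8 and 963 with dTAG-13, 1263 and 1231 with GSI, and 1382 and 1287 with the combination. Every library with GSI was above every library without it, and dTAG-13 replicates lay just above those of DMSO. It rose 1.35-fold (log2 fold change 0.44 ± 0.06 SE, adjusted p = 0.00157, edgeR). FADS1, the desaturase of a later step on the same route and a neighbour of FADS2 in the genome, had 199.996 and 196 CPM with DMSO, 200.4 and 196 with dTAG-13, 236 and 224 with GSI, and 239 and 235 with the combination. The groups with and without GSI again did not overlap, while dTAG-13 and DMSO did, with a log2 fold change of 0.00 between them. It rose 1.18-fold (log2 fold change 0.24 ± 0.05 SE, adjusted p = 0.0203, edgeR). The 2 genes share 490 exon bases on opposite strands, 4.44% of FADS2 and 4.79% of FADS1, and whether the counting used strand is not given in the sources used here.

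ELOVL6, which lengthens palmitate towards stearate, had 27.4 and 28.6 CPM with DMSO, 31.7 and 32.9 with dTAG-13, 36.6 and 36.7 with GSI, and 37.0 and 37.7 with the combination. Its replicates were close, and the dTAG-13 libraries stood between those of DMSO and those with GSI. With GSI it rose 1.23-fold (log2 fold change 0.30 ± 0.06 SE, adjusted p = 0.0148, edgeR). The related gene list of these pathways gave 1 further elongase, ELOVL5 of the polyunsaturated route, at 481 and 499 CPM with DMSO, 436 and 439 with dTAG-13, 635 and 558 with GSI, and 512 and 528 with the combination. ELOVL5 rose as well (log2 fold change 0.27 ± 0.06 SE, adjusted p = 0.025, edgeR).

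SREBF1, which encodes an SREBP factor tied mainly to fatty acid genes, had 192 and 191 CPM with DMSO, 186 and 182 with dTAG-13, 219 and 219 with GSI, and 243 and 227 with the combination. Both dTAG-13 libraries were below both DMSO libraries and all 4 libraries with GSI were above them. With GSI it rose 1.21-fold (log2 fold change 0.27 ± 0.05 SE, adjusted p = 0.0105, edgeR). SREBF2, the factor tied mainly to cholesterol genes and the gene with the sterol element printed above, had 526 and 517 CPM with DMSO, 506 and 479 with dTAG-13, 568 and 536 with GSI, and 553 and 520.2 with the combination. Both GSI libraries were above DMSO while combination replicate 2 lay between the DMSO libraries, and the log2 fold change of 0.10 did not pass the test (adjusted p = 0.342, edgeR).

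INSIG1, which retains SCAP in the endoplasmic reticulum and is itself an SREBP target, had 649 and 638 CPM with DMSO, 746 and 671 with dTAG-13, 827 and 752 with GSI, and 928 and 778 with the combination. Combination replicate 1 stood highest, and the lowest library with GSI exceeded the highest without it by a small margin. It rose 1.21-fold (log2 fold change 0.28 ± 0.07 SE, adjusted p = 0.0417, edgeR). SCAP, the escort of SREBP, had 168 and 161 CPM with DMSO, 164 and 161 with dTAG-13, 147 and 146 with GSI, and 163 and 156 with the combination. Its lowest values were the 2 GSI libraries, while the combination overlapped DMSO, and the log2 fold change of -0.10 did not pass the test (adjusted p = 0.309, edgeR). INSIG2 and STARD4, a sterol carrier, had log2 fold changes of 0.24 and 0.20 that did not pass either. With a library left out, these ran from 0.12 to 0.34 for INSIG2 and from 0.11 to 0.27 for STARD4. Over the 8 libraries INSIG2 ran from 24.8 to 34.8 CPM and STARD4 from 128 to 175 CPM. For both genes the lowest value was in a library without GSI and the highest in one with it, and the libraries with and without GSI overlapped.

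HMGCS1, which makes HMG-CoA from acetyl-CoA units, had 575 and 586 CPM with DMSO, 654 and 616 with dTAG-13, 747 and 675 with GSI, and 767 and 721 with the combination. All 4 libraries with GSI were above all 4 without it. It rose 1.20-fold (log2 fold change 0.26 ± 0.06 SE, adjusted p = 0.0293, edgeR). Of its exon bases, 14.95% lie opposite those of an antisense gene, and 6.92% of those of SREBF1 lie opposite RAI1, with the same limit on strand as for the FADS genes. TM7SF2, a sterol reductase acting after lanosterol, had 68.7 and 67.4 CPM with DMSO, 68.3 and 73.5 with dTAG-13, 75.6 and 92.1 with GSI, and 91.7 and 85.7 with the combination. Its 4 libraries with GSI were above all others, with GSI replicate 1 closest to dTAG-13 replicate 2. It rose 1.24-fold (log2 fold change 0.31 ± 0.07 SE, adjusted p = 0.0208, edgeR).

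The other 6 mevalonate genes did not pass the test. MVD, the decarboxylase that yields isopentenyl diphosphate, IDI1, its isomerase, and FDPS, farnesyl diphosphate synthase, were higher in all 4 libraries with GSI, with log2 fold changes of 0.19, 0.13 and 0.17 and adjusted p of 0.0915, 0.179 and 0.128 (edgeR). Over the 8 libraries MVD ran from 293 to 372 CPM, IDI1 from 248 to 293 CPM and FDPS from 420.2 to 526 CPM. The thiolase ACAT2 had 236 and 231 CPM with DMSO, 229 and 235 with dTAG-13, 241 and 258 with GSI, and 222 and 248 with the combination. PMVK, phosphomevalonate kinase, had 41.9 and 36.2 CPM with DMSO, 35.8 and 42.7 with dTAG-13, 33.9 and 42.3 with GSI, and 31.5 and 40.3 with the combination. Both genes overlapped between libraries with and without GSI, with log2 fold changes of 0.06 and -0.08, and the kinase MVK, which ran from 70.5 to 88.8 CPM, was at 0.04. For ACAT2, 52.3% of exon bases lie opposite exons of other genes (SOD2, SOD2-OT1 and TCP1), a limit of the same kind as for the FADS genes, and TCP1 had 11971 to 16276 counts per library against 917 to 1356 for SOD2. The share was 18.6% for FDPS and 14.8% for IDI1.

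The other 10 genes from squalene to cholesterol did not pass. Of these LSS, lanosterol synthase, was higher in all 4 libraries with GSI, at 0.18 (adjusted p = 0.143, edgeR). The sterol isomerase EBP and the methylsterol oxidase MSMO1 came nearest to the threshold, at 0.22 (adjusted p = 0.0712, edgeR) and 0.21 (adjusted p = 0.0974, edgeR), with overlapping groups. Both passed when genes with low counts were not filtered out (adjusted p = 0.0188 for EBP and 0.0311 for MSMO1, edgeR). With a library left out, log2 fold changes ran from 0.16 to 0.28 for EBP, 0.14 to 0.26 for MSMO1 and 0.12 to 0.23 for LSS. LSS ran from 566 to 739 CPM over the 8 libraries, EBP from 153 to 208 CPM and MSMO1 from 226 to 320.1 CPM. SC5D, a sterol desaturase, had 54.6 and 50.5 CPM with DMSO, 55.9 and 56.0 with dTAG-13, 64.8 and 59.6 with GSI, and 62.1 and 54.4 with the combination. Its GSI libraries were high but combination replicate 2 lay between the DMSO libraries. The remaining 6, which are FDFT1, SQLE, CYP51A1, NSDHL, HSD17B7 and DHCR7, ranged from -0.04 for NSDHL to 0.09 for squalene epoxidase SQLE. Their levels over the 8 libraries ran from 1133 to 1300.0 CPM for FDFT1, 368 to 430.4 for SQLE, 425 to 481 for DHCR7, 67.4 to 82.9 for NSDHL, 50.6 to 57.8 for HSD17B7 and 1.45 to 1.93 for CYP51A1.

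None of the enzymes that make palmitate passed the test. ACACA, acetyl-CoA carboxylase and the committed step, had 189.7 and 197 CPM with DMSO, 204 and 196 with dTAG-13, 175 and 162 with GSI, and 180.2 and 184 with the combination. All 4 libraries with GSI lay below all 4 without it, by a log2 fold change of -0.17 that did not pass the test (adjusted p = 0.0989, edgeR). FASN, fatty acid synthase, had 655 and 665 CPM with DMSO, 737 and 696 with dTAG-13, 608 and 609 with GSI, and 736 and 670.0 with the combination. Its lowest libraries were those with GSI alone, while combination replicate 1 was level with the highest dTAG-13 library, and its averaged GSI effect was -0.07. ACLY, which supplies cytosolic acetyl-CoA from citrate, had 585 and 584 CPM with DMSO, 621 and 560.1 with dTAG-13, 587 and 544 with GSI, and 555 and 532 with the combination. ACLY also had a negative value, -0.08, with overlapping groups. SCD, the desaturase of stearoyl-CoA, ran from 631 to 840.5 CPM and did not pass at 0.15.

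**Figure D4:**
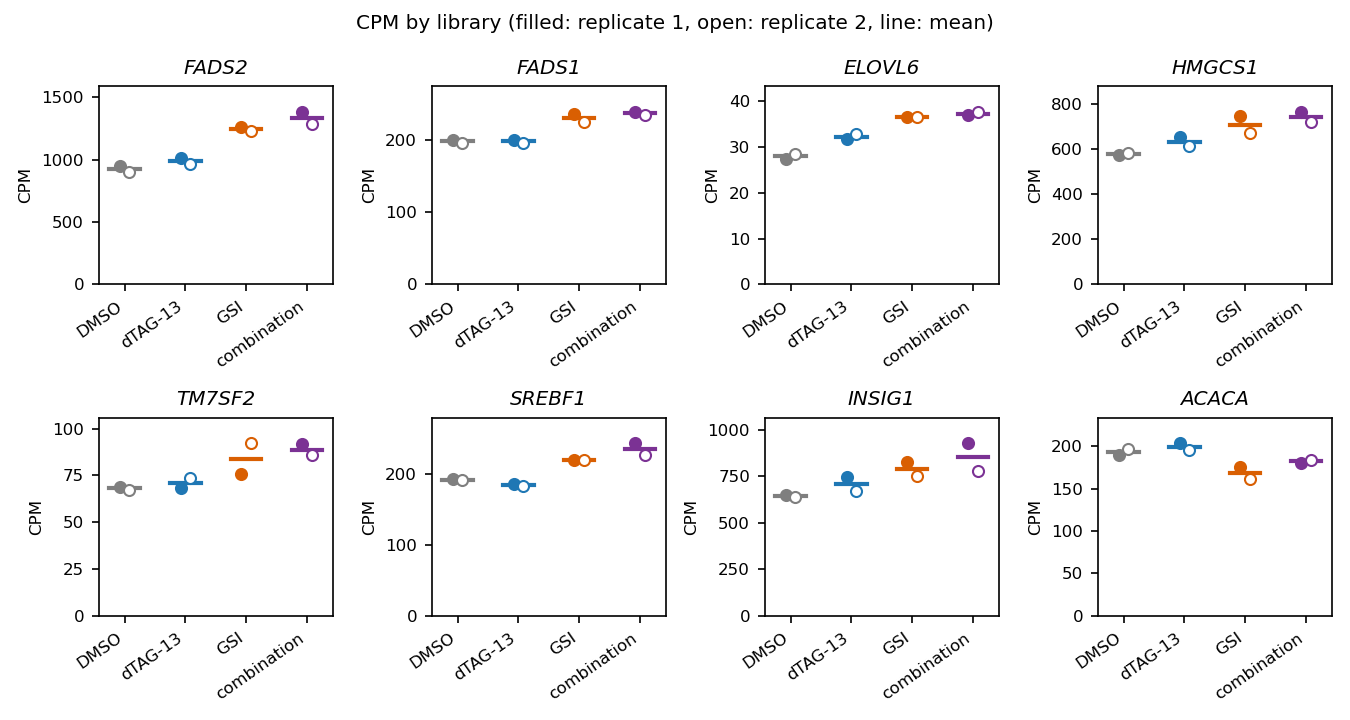
CPM of the 7 genes that rose with GSI and of ACACA in each library; filled points are replicate 1, open points replicate 2, and lines the mean of 2. The 4 points with GSI lie above the 4 without it in the 7 panels from FADS2 to INSIG1 and below them for ACACA.

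ACSS2, which makes acetyl-CoA from acetate, varied most between the replicates of GSI and of the combination. It had 17.8 and 16.5 CPM with DMSO, 21.7 and 17.9 with dTAG-13, 24.8 and 18.0 with GSI, and 30.5 and 17.1 with the combination. Replicate 1 was above replicate 2 in each group, by 0.11 on the log2 scale with DMSO, 0.28 with dTAG-13, 0.46 with GSI and 0.83 with the combination. Its averaged GSI effect of log2 fold change 0.30 ± 0.16 SE, adjusted p = 0.31 (edgeR) did not pass the test. With a library left out, this log2 fold change ran from 0.06 to 0.47.

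The size of the GSI difference also varied with the library number for other genes. Among libraries numbered 1, those with GSI exceeded those without by a median log2 difference of 0.31 over the 6 SREBP control genes and 0.25 over the 8 fatty acid genes, and among libraries numbered 2 by 0.09 and 0.04. For the 7 mevalonate genes the order was the other way, 0.10 and 0.16, and for the 11 sterol genes the values were 0.12 and 0.10. STARD4 gave 0.34 and 0.04, INSIG2 0.36 and 0.10, and SCD 0.24 and 0.05. Closer values were those of FADS2 at 0.43 and 0.44, SREBF1 at 0.28 and 0.26, and ELOVL6 at 0.32 and 0.28. The labels do not say that a number marks a shared culture, day or batch.

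**Figure D5:**
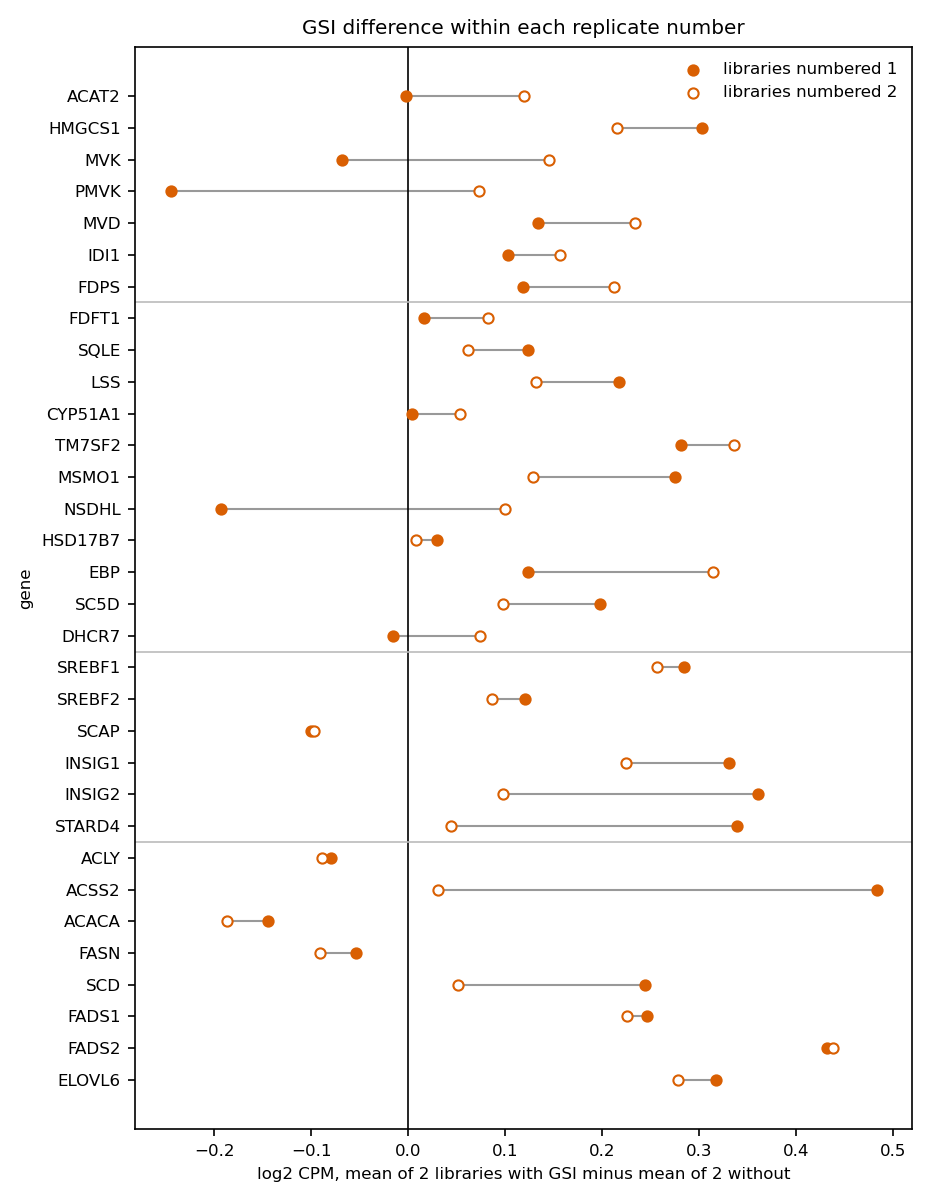
Difference in log2 CPM between the 2 libraries with GSI and the 2 without, for each gene, among libraries numbered 1 (filled) and 2 (open), joined by a line. FADS2 gives 0.43 and 0.44, and ACSS2 gives 0.48 and 0.03.

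The averaged GSI effect was also fitted with single libraries left out. Leaving out each of the 8 libraries in turn leaves 1 in its group, so the number of genes called is not compared across these fits. The median log2 fold change of the 32 ran from 0.10 without combination replicate 1 to 0.17 without combination replicate 2. FADS2 was called in all 8 of these fits, with adjusted p from 0.00101 to 0.0262 (edgeR). SREBF1 was called in 5, ELOVL6 in 4, FADS1 and TM7SF2 in 3 each, and HMGCS1 and INSIG1 in 2 each. Their log2 fold changes stayed positive in all 8, the lowest being 0.21 for INSIG1 without combination replicate 1.

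Taken singly, each drug was compared with DMSO. These comparisons share the DMSO libraries, so the values stand side by side and are not independent. With GSI alone, 1 of the 32 genes rose, FADS2 (log2 fold change 0.43 ± 0.09 SE, adjusted p = 0.03, edgeR), where 1.74% of all genes were called and 0.876% called higher. The median of the 32 was 0.18 and 26 were above 0, against 0.01 and 51.4% over all genes tested. ELOVL6 came next at 0.39 (adjusted p = 0.0524, edgeR), and the lowest values were -0.20 for ACACA and -0.17 for SCAP, neither of which passed. The FADS2 call was lost without any 1 of the 4 libraries compared, at adjusted p of 0.0679 without GSI replicate 2, 0.141 without GSI replicate 1, 0.218 without DMSO replicate 1 and 0.415 without DMSO replicate 2 (edgeR), with log2 fold changes from 0.39 to 0.48. With 1 library left in a group, these fits assume that it varies like the other groups. In the authors' deposited table FADS2 was likewise the single member past 0.05, at a log2 fold change of 0.42 with an adjusted p of 0.00225.

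With the combination, FADS2 (log2 fold change 0.53 ± 0.09 SE, adjusted p = 0.0114) and ELOVL6 (log2 fold change 0.41 ± 0.09 SE, adjusted p = 0.0464) rose against DMSO by edgeR, 2 of 32 where 1.31% of all genes were called and 0.543% called higher. DESeq2 called 4, where 0.716% of all genes were called higher by it, adding HMGCS1 (log2 fold change 0.35, adjusted p = 0.0192) and INSIG1 (0.40, adjusted p = 0.0225). The authors' deposited table has 3 of them past 0.05, FADS2 at 0.53, HMGCS1 at 0.35 and INSIG1 at 0.40. The median of the 32 was 0.18 with 27 above 0, against a median of 0.00 and 50.5% over all genes tested. The lowest values were -0.12 for PMVK and -0.11 for ACLY, and the highest after FADS2 was 0.48 for ACSS2, none of which passed. For ACSS2 this value was 0.83 without combination replicate 2, which passed (adjusted p = 0.0371, edgeR), and -4e-04 without combination replicate 1. The FADS2 call was lost without DMSO replicate 1, DMSO replicate 2 or combination replicate 1 (adjusted p = 0.130, 0.294 and 0.0529, edgeR), and that of ELOVL6 without any 1 of the 4 libraries (adjusted p from 0.103 to 0.397, edgeR).

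Added to dTAG-13, GSI raised FADS2 (log2 fold change 0.44 ± 0.09 SE, adjusted p = 0.0374) and SREBF1 (log2 fold change 0.35 ± 0.08 SE, adjusted p = 0.0495) by edgeR, 2 of 32 where 1.21% of all genes were called and 0.639% called higher. The median was 0.12 and 24 were above 0, as were 49.8% of all genes, with ACACA at -0.13 and PMVK at -0.13 lowest. Both calls were lost without dTAG-13 replicate 1, dTAG-13 replicate 2 or combination replicate 1, with adjusted p of 0.276, 0.529 and 0.238 for SREBF1 and 0.224, 0.491 and 0.153 for FADS2 (edgeR). SREBF1 stood at the threshold, and with DESeq2's size factors its adjusted p was 0.0512 (edgeR).

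With dTAG-13 against DMSO, 0 of the 32 genes passed edgeR's or DESeq2's test, where edgeR called 0.0192% of all genes. At an unadjusted p below 0.05, edgeR gave 1 gene, ELOVL6 at 0.20, and 3.84% of all genes. The differences were small and mostly of 1 sign: 28 of 32 were above 0, against 51.9% of all genes, and the median was 0.08 against 0.01. The highest values were those of ACSS2 (0.21) and ELOVL6, and the lowest those of SREBF2 (-0.08) and SREBF1 (-0.06), whose 2 dTAG-13 libraries were below both DMSO libraries. The count above 0 was 25 without DMSO replicate 2 and 29 without DMSO replicate 1.

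On top of GSI, dTAG-13 again gave 0 of 32 by both tests, where edgeR called 0.0575% of all genes, and 1 gene at an unadjusted p below 0.05, FASN at 0.21, beside 4.14% of all genes. The median was 0.05, with ACSS2 (0.15) next to FASN at the top and SC5D (-0.09) and PMVK (-0.09) at the bottom. Averaged over both backgrounds, dTAG-13 gave 0 of 32 where 0.499% of all genes were called, with 26 above 0, against 51% of all genes, and a median of 0.07. MSMO1 (0.15) and FASN (0.16) had an unadjusted p below 0.05, as had 6.08% of all genes. FASN and DHCR7 (0.09) were higher in all 4 libraries with dTAG-13 than in all 4 without, an order that 1.07% of all genes showed. The lowest averaged values were -0.06 for SREBF2 and -0.05 for ACAT2. For the 31 genes at 5 CPM or more, the 95% intervals of this effect ran from -0.26 to 0.53, the upper end being that of ACSS2.

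Whether the drugs acted together beyond the sum of their effects was tested as the departure from additivity on the log2 scale. None of the 32 genes passed by edgeR or DESeq2 (0 of 32, where 0% of all genes passed by edgeR), 0 had an unadjusted p below 0.05 and 1.66% of all genes did. The values ran from -0.19 for SC5D and -0.18 for ELOVL6 to 0.14 for SCAP and 0.16 for SREBF1. For FADS2 the departure was 0.00 with a 95% interval of -0.27 to 0.28.

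Genes of neighbouring pathways were counted from a list of 41. Of these, which cover SREBP processing, isoprenoid branches, sterol export and LXR, fatty acid elongation and use, and fatty acid oxidation, 1 rose and 0 fell with GSI averaged over both backgrounds, ELOVL5 (described above), where 6.94% of all genes were called. Their median log2 fold change was 0.03 and 27 of 41 were above 0. In each of the other 7 comparisons 0 of the 41 passed edgeR's test, and the difference between the 2 lists was not tested.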

How the data were processed

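Total RNA of TAL1-FKBP12 Jurkat cells was sequenced as strand-specific, paired-end libraries, 2 for each of 4 treatments. The authors deposited counts per gene and library, made with STAR 2.5.2a and featureCounts on hg19, per the submitters' processing notes. They also deposited 3 tables of each treatment against DMSO, with log2 fold changes, errors, a score (fold change over error) and p-values made by the authors with DESeq2 1.12.4. For the annotation and the strand setting of the counting, nothing is given in the sources used here.

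Counts were filtered with filterByExpr, scaled by TMM and fitted over all 8 libraries in 4 groups by the robust quasi-likelihood model of edgeR 4.0.16 in R 4.3.3, with 4 residual degrees of freedom. Tests were 2-sided, with p-values adjusted over the 15646 genes by Benjamini-Hochberg and a threshold of 0.05. Log2 CPM used a prior count of 2. Precision is limited by 2 libraries per group, at 17544319 to 22180009 counts each. Replicates were not copies, with log2 CPM correlated at 0.992 to 0.993 and chi-square per degree of freedom of their counts from 4.42 to 13.4 over all genes. Over the 32 genes that chi-square was 5.04 for DMSO, 23.8 for dTAG-13, 43.4 for GSI and 71.0 for the combination.

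Values in every library are given for genes called by edgeR or DESeq2 in any of 8 comparisons, and for the 2 highest and 2 lowest genes of each whose mean reached 5 CPM. The genes and lists were chosen with earlier results of these data known. Exon lengths and overlaps came from GENCODE v29 and promoters from RefSeq, both on GRCh38, so no coordinates come from the counts. Alternatives were DESeq2's size factors, no filter, DESeq2 1.42.0 with its Wald test, a fit with a replicate block, one with the DMSO numbers crossed, the compared libraries alone and each library left out. The scripts were tested on simulated data.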

Additional observations from a re-analysis of the deposited data

Results flagged for a closer look

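For 2 genes every dTAG-13 library moved one way without GSI and the other way with it. IDI1, the isopentenyl diphosphate isomerase, had a dTAG-13 effect of 0.12 on the log2 scale without GSI, both libraries above both of DMSO, and of -0.03 with GSI, both libraries below both of GSI alone. The difference, tested as the departure from additivity, was -0.14 (adjusted p = 0.9999, edgeR). SREBF1 had -0.06 without GSI and 0.10 with it, a difference of 0.16 (adjusted p = 0.9999, edgeR). Neither difference passed the test. Over all genes tested, both dTAG-13 libraries were above both of DMSO for 17.7% and below them for 17.6%. Both combination libraries were above both of GSI alone for 11.8% and below them for 14%. The share of all genes with opposite orders was not counted, so whether 2 genes is more than the background is not known.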

How the results depend on the processing

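The count of the 32 genes called stayed at 0 for dTAG-13 against DMSO, the combination against GSI, the departure from additivity and averaged dTAG-13 under every alternative run. For GSI against DMSO, where 1 was called, it was 4 with no filter on low counts and 0 with the compared libraries alone. For the combination against DMSO, where 2 were called, it was 7 with no filter, 4 by DESeq2 and 1 with the compared libraries alone. For the combination against dTAG-13, also 2, it was 1 with DESeq2's size factors and 0 with the compared libraries alone. Averaged GSI gave 7, 9 with no filter (EBP and MSMO1 added) and 1 to 11 with a library left out. The sign of all 7 called genes held in each of these. Leaving out a library leaves 1 in its group, and the share of all genes called varied among those fits too. Their counts are therefore not compared with each other or with the main fit. Against the main value of 0.48, the ACSS2 value for the combination against DMSO was -4e-04 without combination replicate 1 and 0.83 without combination replicate 2. Comparing the averaged effects within 4 libraries alone could not be run, since they need all 8.

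Over all genes, calls rose with no filter from 3 to 51 (dTAG-13), 272 to 660 (GSI), 205 to 532 (combination), 189 to 563 (combination against dTAG-13), 9 to 59 (combination against GSI), 1086 to 1815 (averaged GSI) and 78 to 165 (averaged dTAG-13). With no filter 30406 genes were tested in place of 15646. The share called fell from 6.94% to 5.97% for averaged GSI and rose for the other comparisons listed. DESeq2 gave 24 for dTAG-13 and 23 for the combination against GSI. The compared libraries alone gave 71 for dTAG-13, 246 for GSI, 190 for the combination, 96 for the combination against dTAG-13 and 3 for the combination against GSI.

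The labels give the libraries a shared number without saying what it marks. Deviations of same-numbered libraries from their group means correlated across all genes at 0.14 to 0.21 among the 3 treated groups and at -0.11 to -0.03 between each of these and DMSO. Over the 32 genes these values were 0.74 to 0.83 and -0.46 to -0.28. Same-numbered libraries thus deviated together among the treated groups but not with DMSO, and the numbers were not used as pairs. With a replicate block, 2 of the 32 genes were called for GSI against DMSO, 6 for the combination against DMSO, 2 for the combination against dTAG-13 and 9 for averaged GSI, EBP and MSMO1 beside the 7. Over all genes the block gave 23, 559, 413, 476, 34, 1822 and 135 calls for the comparisons in the order just listed for the missing filter. A block with the DMSO numbers crossed was chosen after seeing that DMSO ran against GSI at -0.11. Its counts therefore follow from a choice made on these same libraries. It called 15, 13, 7 and 17 of the 32 genes for GSI, the combination, the combination against dTAG-13 and averaged GSI. ACACA was among those called for GSI and for averaged GSI, with a negative log2 fold change in both. Over all genes the crossed block gave 94, 1581, 1191, 1434, 103, 3221 and 283 calls in the order used for the other block.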
